A study of Rattus norvegicus with 8 samples.

Results

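The J-domain cochaperone family was described here as 39 genes of the rat left ventricle, taken as every gene whose platform symbol begins with Dnaja, Dnajb or Dnajc and a number, out of 14497 genes that the array annotation names by 1 symbol. Each of the 39 had 1 probe set, out of 28826 on the array. By their names 4 genes belong to class A, 12 to class B and 23 to class C. The label of the family was taken from these names, since a J domain cannot be seen in array values.

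J-domain proteins, also called DNAJ or Hsp40 proteins, bind Hsp70 chaperones through a short conserved domain and stimulate them to hydrolyse ATP and to hold on to a client protein. Class A proteins add a glycine- and phenylalanine-rich stretch and a zinc-binding region to the J domain, class B proteins lack the zinc-binding region, and class C proteins share little beyond the J domain and work in many compartments. In muscle, several cytosolic members are known as heat shock genes, which the transcription factor Hsf1 switches on when proteins unfold, as they do in ischemia and on reperfusion.

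The tissue was the left ventricle of the heart, taken from pregnant rats in what the title calls late pregnancy (LP in the design text, which says the animals were female), and every heart, controls included, had gone through ischemia and reperfusion (I/R in the labels). In 3 samples the reperfusion came with vehicle (placebo, Plac in the labels), and in 5 with ILPD, which was taken to be the agent that the design text calls ITLD and the title Intralipid, given as 1 bolus of 5 mg/kg. Strain, age and the length of ischemia and reperfusion are not given in the sources used here, hearts without ischemia were not analysed here, and the pieces were whole ventricle with all its cell types. The labels number the replicates but do not say that each was a separate animal, so a p-value reflects the variation among these 8 arrays alone, part of which may be technical. Values are log2 expression as deposited, differences are ILPD minus placebo on that log2 scale, and a gene is said to have fallen or risen where the adjusted p of limma, over all probe sets, was under 0.05.

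Array medians lay between 7.08 and 7.20, and arrays correlated at 0.991 to 0.995 within a group and at 0.989 to 0.993 between groups. No array carries a depth, so the number of arrays limits the precision. The 10 markers of ventricular cardiomyocytes had mean values of at least 12.44 in both groups. As deposited all 10 had a negative difference (median -0.13), as had 70.6% of all probe sets with a mean of 9 or more. Of the 10, only 5 were negative after a further quantile normalization (median -0.0023) and 2 after cyclic loess (median 0.07). Of them 1, the troponin Tnnc1, fell as deposited (-0.37, limma adjusted p = 0.020), a call lost under both normalizations. The 7 neutrophil markers all had a positive difference (median 0.74), also under both normalizations, and 1, the gelatinase Mmp9, rose (0.58, adjusted p = 0.047, held in 3 of 15 alternative settings). Their summed level was 10.73 to 11.51 in placebo and 11.27 to 12.43 in ILPD. Of 7 macrophage markers 6 had a positive difference, with a summed level of 11.63 to 12.08 in placebo and 12.07 to 12.56 in ILPD. Among them the chemokine receptor Cx3cr1 rose (0.76, adjusted p = 0.031, held in 9 of 15 settings), and Ccr2, at 1.21, did not pass (adjusted p = 0.062). All 6 T and NK cell markers had a positive difference as deposited (median 0.08) and 5 under either normalization. Of the 6, 1 had a mean of 9 or more. The NK receptor Klrd1 rose (0.52, limma adjusted p = 0.030, held in 10 of 15 settings). The summed level of the 6 was 10.09 to 10.30 in placebo and 10.22 to 10.44 in ILPD. Over all probe sets 41.5% had a negative difference, and limma called 1.96% higher and 0.857% lower. Of the markers of endothelium, fibroblasts, smooth muscle, red cells and atrium 0 passed in limma (3 of the endothelial and smooth muscle genes higher and 1 fibroblast gene lower at an unadjusted p under 0.05). At that threshold 11.3% of all probe sets were higher and 7.01% lower. The part of these cell type markers in the results below was not tested, and in whole tissue fewer cells of a type cannot be told apart from less RNA per cell.

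The RefSeq promoter windows of build GRCr8 are printed for Dnajb1 and Dnaja1, the members that fell most, so that the letters near their starts can be read beside the values, 5′ to 3′ on the strand of the gene. Capitals mark matches to pairs of inverted units of the heat shock element, the binding motif of Hsf1. The pairs were searched as GAANNTTC and TTCNNGAA, which read the same on both strands. Each line gives the 250 bases before the annotated start or the 30 bases after it.
Dnajb1, before the start, chr19:41431142-41431391, minus strand: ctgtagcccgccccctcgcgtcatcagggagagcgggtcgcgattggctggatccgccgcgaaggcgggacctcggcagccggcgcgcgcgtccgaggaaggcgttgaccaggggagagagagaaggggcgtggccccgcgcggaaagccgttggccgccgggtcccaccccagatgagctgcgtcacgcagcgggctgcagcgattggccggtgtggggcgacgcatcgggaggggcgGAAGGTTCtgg
Dnajb1, after the start, chr19:41431112-41431141, minus strand: agggctggcgggatctgGAAGCTTCcgccg
Dnaja1, before the start, chr5:60638154-60638403, plus strand: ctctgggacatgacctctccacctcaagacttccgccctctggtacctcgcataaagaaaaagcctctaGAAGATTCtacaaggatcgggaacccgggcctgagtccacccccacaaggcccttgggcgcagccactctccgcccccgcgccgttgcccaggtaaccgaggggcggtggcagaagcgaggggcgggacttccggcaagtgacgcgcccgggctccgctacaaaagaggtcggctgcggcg
Dnaja1, after the start, chr5:60638404-60638433, plus strand: ggccgggcgGAACTTTCCAGAAcgctcggt

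Counted from the start, with the base before it as -1, Dnajb1 had GAAGGTTC at -11 and GAAGCTTC at 18. Dnaja1 had GAAGATTC at -181 and a run of 3 inverted units, GAACTTTCCAGAA, at 10, in which GAACTTTC and TTCCAGAA overlap. A run of 3 units, with GAANNTTC followed directly by NNGAA and searched on both strands, was held by 0.798% of the 33469 windows of 300 bases in the table, and among the 30 members with a window by Dnaja1 alone. At least 1 of the 2-unit forms was held by 15.9% of all windows and by 6 of the 30 members, which were Dnaja1, Dnajb1, Dnajb6, Dnajc18, Dnajc27 and Dnajc5g. The last 4 of these did not pass the test. The window of Dnaja4, which also fell, held no match, and Dnajb4 had no window. A match is a description of letters, and its part in the falls was not tested.

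**Figure D1:**
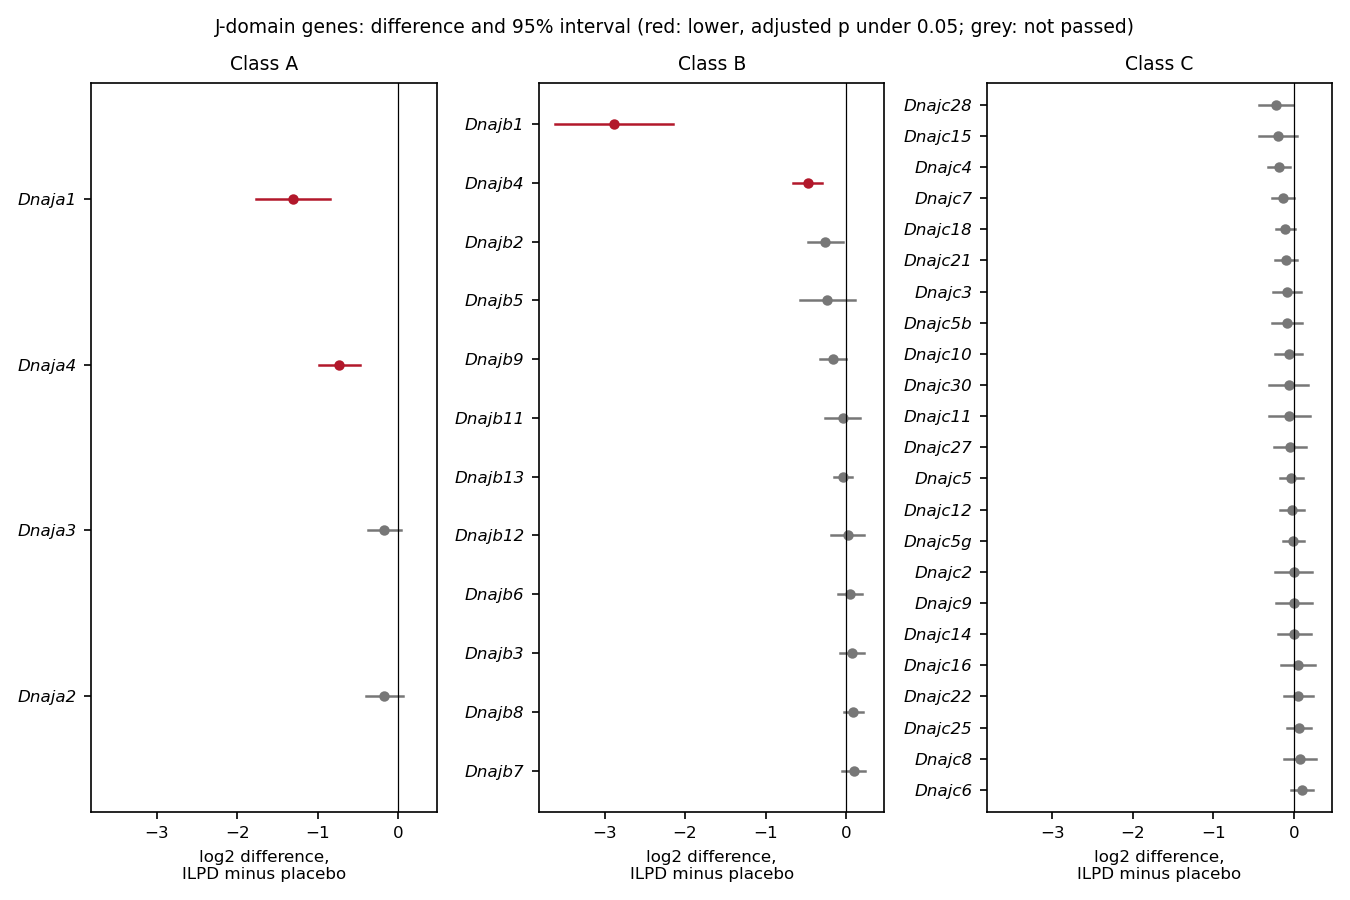
Log2 difference (ILPD minus placebo, x axis) with its 95% interval for each of the 39 J-domain genes, in 1 panel per class, sorted by difference. Dnajb1 at -2.89 and Dnaja1 at -1.31 stand far to the left, Dnaja4 and Dnajb4 are the other genes in red (fallen), and all 23 class C genes lie between -0.22 and 0.11.

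Of the 39 genes 4 fell and 0 rose in ILPD hearts. These were Dnajb1, Dnaja1, Dnaja4 and Dnajb4, all cytosolic partners of Hsp70, so that 10.3% of the family was called lower against 0.857% of all probe sets, 1.17% of named genes by 1 probe set each, and 2.97% of the probe sets with a mean of 9 or more. At an unadjusted p under 0.05 limma gave 7 members lower and 0 higher, beside 7.01% of all probe sets lower and 11.3% higher, and no other tool was run. Of these 7, 6 were among the 22 members with a mean of 9 or more, where 23.5% of all such probe sets were lower at that threshold, so that this looser count was near its background. By class, 2 of 4 class A, 2 of 12 class B and 0 of 23 class C genes fell (2 of the class C genes at an unadjusted p under 0.05). Without placebo array 2, or without placebo array 3, Dnajb1 alone was called. Higher calls were made for 1.96% of all probe sets and 2.29% of named genes, and calls in either direction for 2.81% of all probe sets.

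The median difference was -0.45 in class A, -0.04 in class B and -0.05 in class C, beside 0.02 over all probe sets and -0.09 over the brighter ones with a mean of 9 or more. The median of a class varied between arrays of a group with an SD of 0.12 in class A, 0.05 in class B and 0.06 in class C. Over all members the class B and class C medians lay within that spread. The classes differed in brightness, with 4 of 4 class A, 8 of 12 class B and 10 of 23 class C genes at a mean of 9 or more. Without the dimmest 40% of probe sets the class B median was -0.16, beyond its SD. The 10 class B genes that did not pass lay between -0.26 and 0.10, and both class A genes that did not pass were close to each other, at -0.18 and -0.17. Among the 22 members with a mean of 9 or more 4 fell, and among the 17 dimmer ones 0 did. Over the whole family 27 genes had a negative and 12 a positive difference, with a median of -0.06, where 41.5% of all probe sets and 70.6% of those with a mean of 9 or more were negative. The 22 members with such a mean split into 19 negative and 3 positive and the 17 dimmer ones into 8 and 9, so that the lean to negative values lay in the brighter members.

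Dnajb1, also known as Hsp40, is the stress-inducible class B partner of cytosolic Hsp70 (probe set 10810295). The placebo arrays 1 to 3 read 11.27, 12.37 and 12.54, and the ILPD arrays 1 to 5 read 8.58, 9.54, 8.87, 9.82 and 9.07. Every ILPD array lay below every placebo array, a pattern found in 4.42% of all probe sets, and the gap between the nearest arrays of the 2 groups was wider than the range within either group. The mean was 12.06 ± 0.69 (SD, n = 3) in placebo and 9.17 ± 0.50 (SD, n = 5) in ILPD. This is a 7.39-fold lower level in ILPD with a 95% interval of 4.45 to 12.3-fold (limma adjusted p = 0.0033). The call held in all 15 alternative settings, with an adjusted p of at most 0.025.

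Dnaja1, a farnesylated class A cochaperone of the cytosol (probe set 10868289), was the next largest. It read 12.18, 12.56 and 12.42 in placebo arrays 1 to 3 and 10.66, 11.16, 10.64, 11.46 and 11.46 in ILPD arrays 1 to 5. No ILPD array reached a placebo array, and within ILPD the arrays 1 and 3 were low and 4 and 5 high. The mean was 12.39 ± 0.20 (SD, n = 3) against 11.08 ± 0.41 (SD, n = 5), a 2.48-fold lower level (95% interval 1.81 to 3.40-fold, limma adjusted p = 0.013). Without placebo array 2 the adjusted p was 0.067, and without placebo array 3 it was 0.061.

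Dnaja4, a class A relative of Dnaja1 that is prominent in heart and skeletal muscle (probe set 10910084), fell as well. It read 9.68, 10.05 and 9.96 in placebo and 9.30, 9.37, 9.09, 9.14 and 8.92 in ILPD. The groups did not overlap, and their nearest arrays were placebo 1 and ILPD 2. The difference was -0.73 (SE 0.11), a 1.66-fold lower level with a 95% interval of 1.40 to 1.98-fold (limma adjusted p = 0.012). The adjusted p was 0.062 without placebo array 2 and 0.061 without placebo array 3.

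Dnajb4, a class B protein close to Dnajb1 in sequence and abundant in muscle (probe set 10819787), fell by the smallest amount of the 4. The placebo arrays read 12.92, 13.11 and 13.24 and the ILPD arrays 12.51, 12.63, 12.68, 12.56 and 12.68. All ILPD arrays sat in a narrow band below the placebo arrays (12.61 ± 0.08, SD, n = 5, against 13.09 ± 0.17, SD, n = 3). The difference was -0.48 (SE 0.08), or 1.39-fold (limma adjusted p = 0.016), and its interval of -0.65 to -0.30 did not reach that of Dnajb1. This was the call that depended most on scaling. After a further quantile normalization the difference was -0.34 (adjusted p = 0.065), and after cyclic loess, which removes shifts that follow brightness, it was -0.30 (adjusted p = 0.10).

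**Figure D2:**
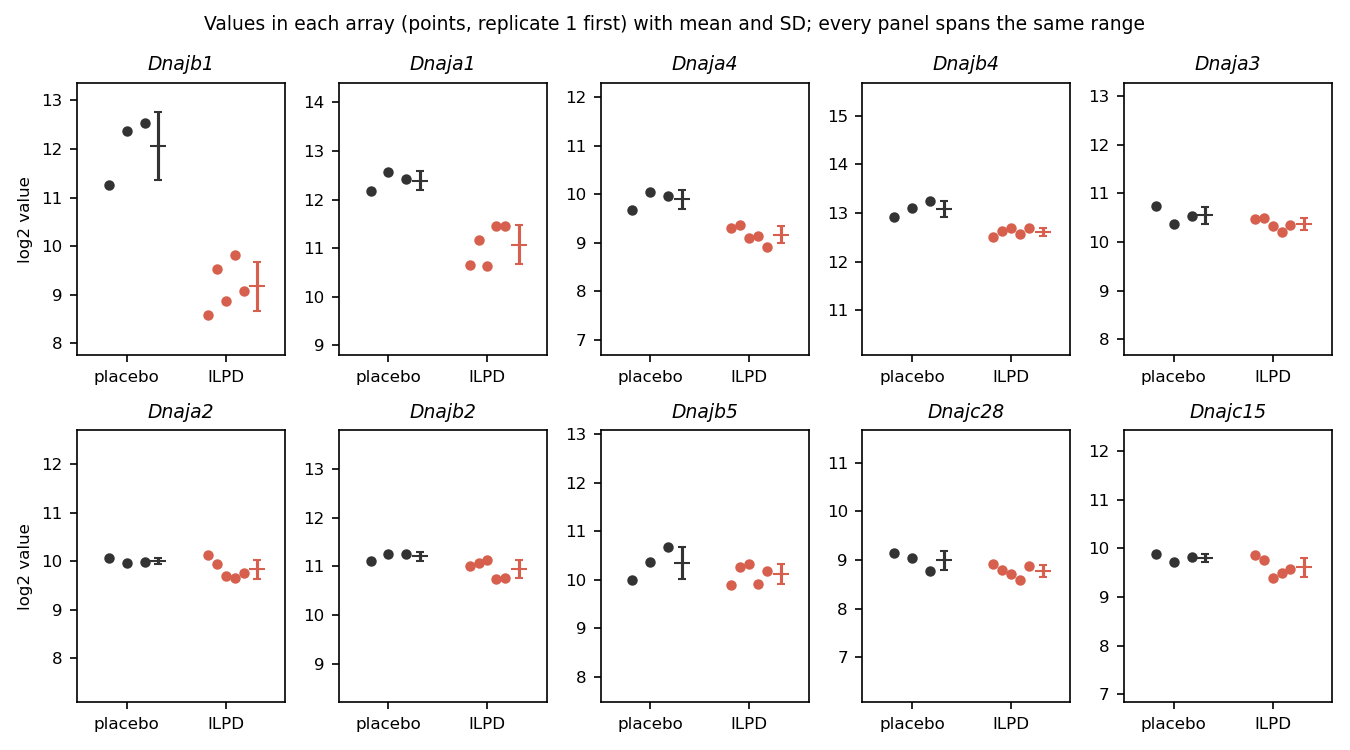
Log2 value in each array (points, placebo in black and ILPD in red, in order of replicate number) with the group mean and SD beside them, for the 4 genes that fell and the 2 genes of each class with the largest difference that did not pass. The ILPD points of Dnajb1, Dnaja1, Dnaja4 and Dnajb4 lie below all placebo points, while those of the other 6 genes mix with them.

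The remaining 5 genes that were grouped here as cytosolic Hsp70 cochaperones did not pass the test. Dnaja2, the constitutive class A relative of Dnaja1, read 10.07, 9.96 and 9.98 in placebo and 10.13, 9.94, 9.68, 9.65 and 9.75 in ILPD. ILPD array 1 was the highest of all 8 arrays, so the groups overlapped (difference -0.17, 95% interval -0.41 to 0.06). The log2 ratio of Dnaja1 to Dnaja2 within an array shifted by -1.14, from a range of 2.11 to 2.60 in placebo to 0.53 to 1.81 in ILPD, and that of Dnaja4 to Dnaja2 shifted by -0.56. These ratios were chosen after the values were seen and have no test, so they are given as a description of these arrays.

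Dnajb2, whose protein also binds ubiquitin, read 11.11, 11.25 and 11.25 in placebo and 11.02, 11.07, 11.13, 10.75 and 10.76 in ILPD. The ILPD arrays 4 and 5 stood below the other 3, and array 3 overlapped with placebo array 1 (difference -0.26, limma adjusted p = 0.20). Dnajb5, a class B relative of Dnajb1 and Dnajb4, read 9.9997, 10.37 and 10.67 in placebo and 9.88, 10.26, 10.33, 9.91 and 10.18 in ILPD. Of the ILPD arrays 3 lay within the placebo range and 2 below it, and its difference of -0.23 had an interval of -0.57 to 0.11, the widest among the genes that did not pass. The log2 ratio of Dnajb1 to Dnajb5 shifted by -2.65 and that of Dnajb1 to Dnajb4 by -2.41, again without a test. Dnajb6, which keeps client proteins from aggregating and is mutated in a human muscle disease, differed by 0.05 (-0.10 to 0.20). Dnajc7, a cochaperone with repeats that bind Hsp70 and Hsp90, differed by -0.13 (-0.27 to 0.01).

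**Figure D3:**
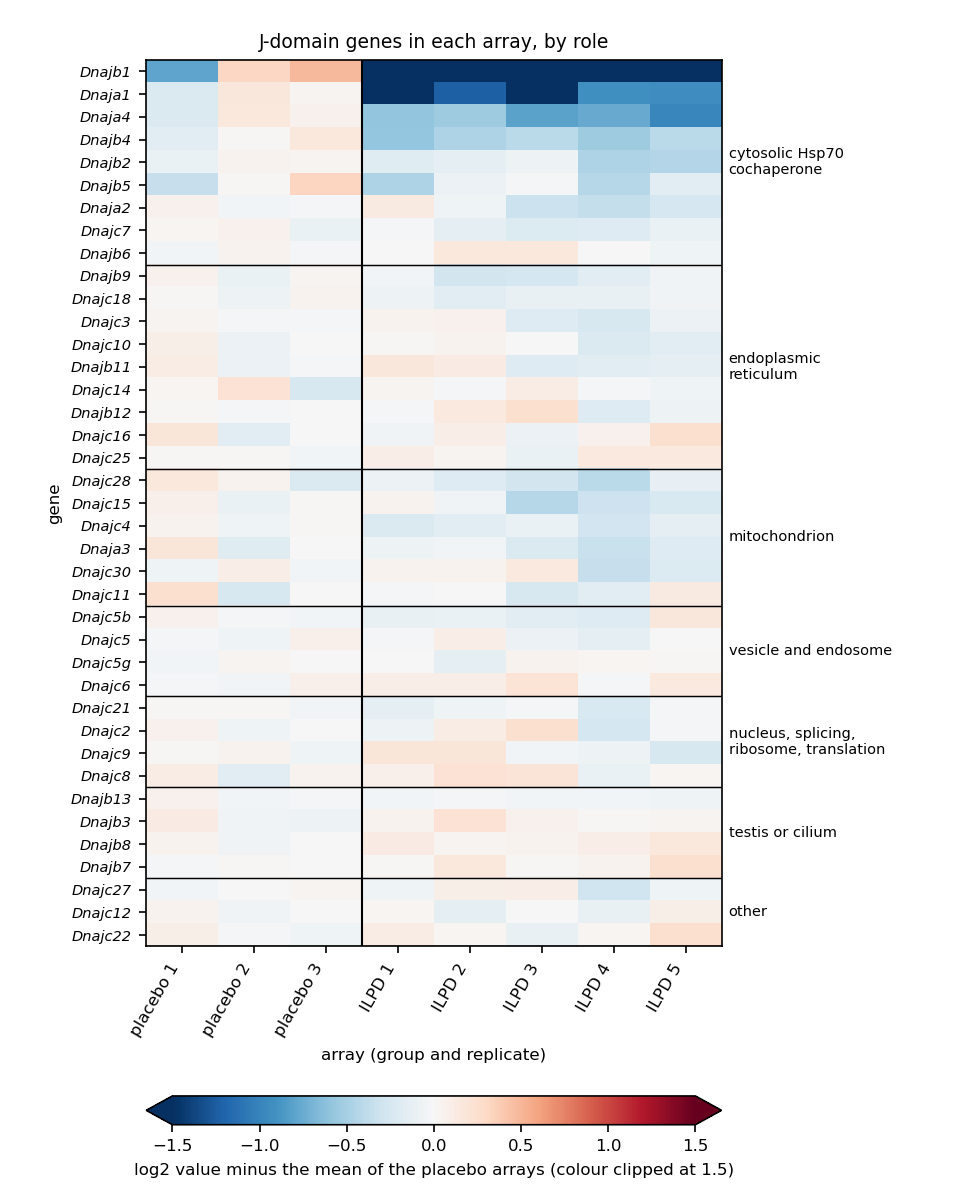
Each row is a J-domain gene and each column an array, grouped by role, and the colour gives the log2 value minus the mean of the 3 placebo arrays, clipped at 1.5. The dark blue rows at the top are Dnajb1, Dnaja1 and, less deep, Dnaja4 in all 5 ILPD arrays, and the first placebo array is also blue for Dnajb1. The rows of the other compartments stay pale, as do those of the cytosolic genes that did not pass.

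The 9 members assigned to the endoplasmic reticulum, which holds the Hsp70 protein Hspa5, gave 0 calls in limma, and 0 at an unadjusted p under 0.05. They were grouped by location, not by the Hsp70 protein they serve. Their median difference was -0.04, and their differences ran from -0.16 to 0.07. The lowest was that of Dnajb9, an inducible cochaperone of the unfolded protein response, which read 10.18, 10.02 and 10.16 in placebo and 10.08, 9.84, 9.85, 9.95 and 10.06 in ILPD. The groups overlapped through ILPD arrays 1 and 5 (difference -0.16, adjusted p = 0.28). Dnajb11, an abundant secretory pathway cochaperone, differed by -0.04 (-0.26 to 0.18), Dnajc3, which also restrains the kinase PERK, by -0.08 (-0.26 to 0.10) and Dnajc10, a disulfide reductase, by -0.06 (-0.23 to 0.11). The membrane proteins Dnajb12 and Dnajc14 and the genes Dnajc16, Dnajc18 and Dnajc25 lay between -0.10 and 0.07.

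The window of Dnajc3 is shown for contrast, since it was the member that held the endoplasmic reticulum stress response element, in capitals, searched on both strands as CCAAT and CCACG with 9 bases of any kind between them.
Dnajc3, chr15:102432524-102432563, plus strand: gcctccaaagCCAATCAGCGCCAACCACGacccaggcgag

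The match began at -133, and 0.0657% of all windows held one. Dnajc3 read 8.89, 8.81 and 8.83 in placebo and 8.89, 8.91, 8.65, 8.60 and 8.75 in ILPD, so that the ILPD arrays lay on either side of the placebo arrays.

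All 6 mitochondrial members had a negative difference, as they had after quantile and after cyclic loess normalization, but 0 passed (2 at an unadjusted p under 0.05 in limma). At that threshold 7.01% of all probe sets were lower, and 23.5% of those with a mean of 9 or more, which 5 of the 6 had. The median of the 6 was -0.18 as deposited, -0.09 after quantile normalization and -0.08 after cyclic loess. Over all brighter probe sets as deposited it was -0.09, and 70.6% of them were negative. The 22 family members with a mean of 9 or more had a median of -0.085 after quantile normalization and -0.077 after cyclic loess. Dnajc28 had the largest difference of class C and read 9.15, 9.05 and 8.78 in placebo and 8.91, 8.80, 8.71, 8.59 and 8.87 in ILPD. Placebo array 3 fell among the ILPD arrays (difference -0.22, adjusted p = 0.27).

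Dnajc15, a regulator of protein import and of the respiratory chain, read 9.88, 9.71 and 9.83 in placebo and 9.86, 9.75, 9.38, 9.50 and 9.57 in ILPD. Its ILPD arrays 1 and 2 lay within the placebo range and the other 3 were lower (difference -0.19, adjusted p = 0.36). Dnajc4 read 10.75, 10.64 and 10.72 against 10.48, 10.54, 10.61, 10.41 and 10.55. It was the single class C gene whose groups did not overlap, where 4.42% of all probe sets had all ILPD arrays below all placebo arrays. Its small difference of -0.18 (SE 0.06) had the lowest limma adjusted p of all members that did not pass, 0.14. Dnaja3, the mitochondrial class A protein that works with Hspa9, read 10.73, 10.37 and 10.54 in placebo and 10.47, 10.50, 10.33, 10.21 and 10.35 in ILPD (difference -0.18, adjusted p = 0.36). Placebo array 2 lay among the ILPD arrays. Dnajc11 and Dnajc30 both differed by -0.06.

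Among the other class C genes 0 passed in limma, and 0 at an unadjusted p under 0.05. The vesicle proteins Dnajc5 (cysteine string protein), Dnajc5b and Dnajc5g and the clathrin-uncoating auxilin Dnajc6 lay between -0.08 and 0.11. Dnajc2, which sits at the ribosome, Dnajc8, a splicing protein, Dnajc9, a histone chaperone, and Dnajc21, a factor of ribosome maturation, lay between -0.10 and 0.08. Dnajc12, Dnajc22 and Dnajc27 lay between -0.05 and 0.06. In these 11 genes the 95% intervals ran from -0.26 at the lowest to 0.28 at the highest, so changes larger than those bounds lay outside the interval of each gene.

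Dnajb3, Dnajb7, Dnajb8 and Dnajb13, which are known mainly from testis and cilia, had means of at most 7.09 in either group and differences of -0.04 to 0.10. Dnajb7 read 5.98, 6.01 and 6.01 in placebo and 6.01, 6.16, 6.01, 6.05 and 6.23 in ILPD. All its ILPD arrays lay above all placebo arrays, as did 7.95% of all probe sets, the nearest by less than the second decimal shows (difference 0.10, limma adjusted p = 0.47). The sperm marker genes Prm1, Prm2, Tnp1 and Odf1 read 6.30 to 7.93 on average.

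The arrays of a group were ordered differently by the fallen genes and by the rest of the family. How often each array was the highest or lowest over all probe sets was not counted. The genes were read on the same arrays, so their ranks are not separate observations, and a shift of a whole array was not tested. Placebo array 1 was the lowest placebo array for all 4 genes that fell, with a median deviation from the group mean of -0.21, but was the highest for 21 and the lowest for 7 of the other 35 members (median deviation 0.05). Among the other 35, ILPD array 4 was the lowest ILPD array for 17 and the highest for 0, whereas it was the highest for 2 of the 4 fallen genes. Spread went with response in part. Dnajb1 (pooled SD within groups 0.57) and Dnaja1 (0.35) had the largest spread of the family, beyond 99.8% and 98.6% of all probe sets, Dnajb5 came next (0.26), while Dnajb4 (0.11) was close to the family's median of 0.12. The median over all probe sets was 0.10.

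**Figure D4:**
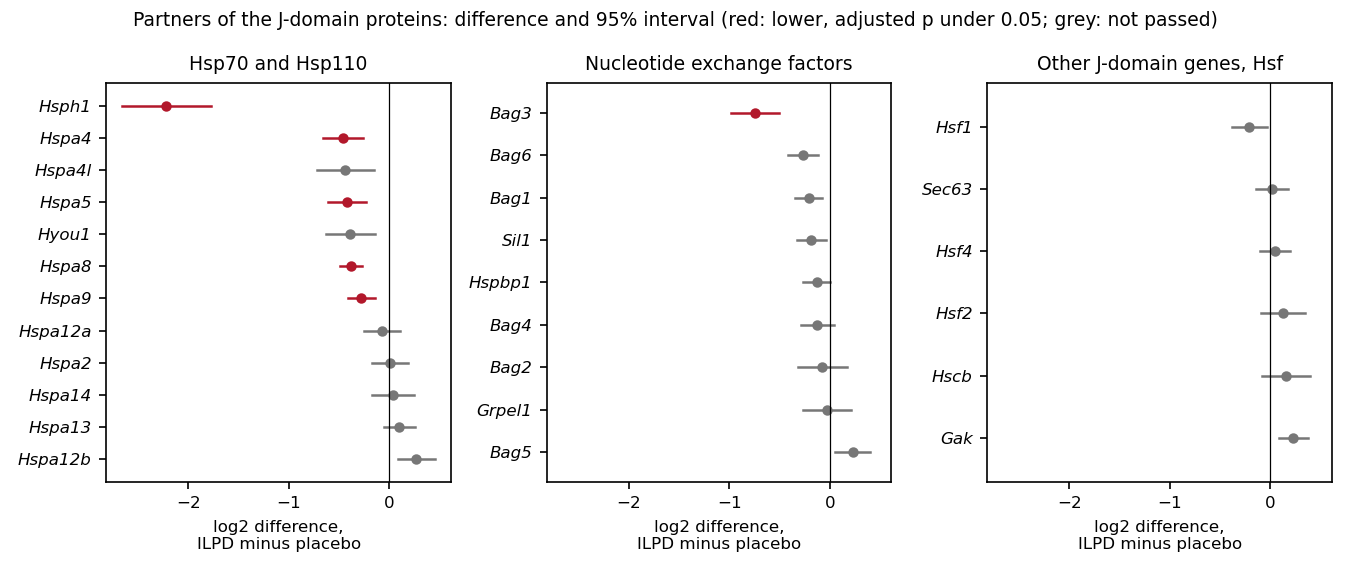
Log2 difference (ILPD minus placebo, x axis) with its 95% interval for the Hsp70 and Hsp110 genes, the nucleotide exchange factors, and J-domain genes outside the naming pattern with the heat shock factors. Hsph1 at -2.22 and Bag3 at -0.74 lie farthest left; red marks genes that fell.

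The partners that J-domain proteins act on were read from lists of the Hsp70 system. Of 12 measured Hsp70 and Hsp110 genes 5 fell and 0 rose, with a median of -0.33 (-0.22 after quantile normalization and -0.15 after cyclic loess). Lower calls were made for 0.857% of all probe sets and 2.97% of those with a mean of 9 or more, which 6 of the 12 had. At an unadjusted p under 0.05 limma gave 7 lower and 1 higher, beside 7.01% of all probe sets lower and 11.3% higher. Of the probe sets with a mean of 9 or more 23.5% were lower at that threshold. Hsph1, the Hsp110 protein that exchanges nucleotide on Hsp70, read 11.24, 11.87 and 11.75 in placebo and 9.10, 9.61, 8.96, 9.72 and 9.61 in ILPD. As for Dnajb1 and Dnaja1, its lowest placebo array was array 1, its lowest ILPD arrays were 1 and 3, and its highest was 4 (difference -2.22, SE 0.20, adjusted p = 0.0011). Hspa8, the constitutive cytosolic Hsp70, read 14.27, 14.28 and 14.34 against 13.87, 13.91, 13.89, 13.95 and 13.96. In this probe set, the brightest of the gene, the difference was -0.38 (SE 0.05, limma adjusted p = 0.0061). That was smaller in size than in the 4 J-domain genes that fell, but its interval of -0.49 to -0.27 overlapped that of Dnajb4 (-0.65 to -0.30). The other 4 probe sets of Hspa8 gave -0.52 to -0.37, the largest of them beyond the -0.48 of Dnajb4. After cyclic loess the call of Hspa8 was lost (limma adjusted p = 0.14).

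Of the partners in other compartments, Hspa5 of the endoplasmic reticulum fell by 0.42 (limma adjusted p = 0.036) and Hspa9 of the mitochondrion by 0.28 (adjusted p = 0.043). The calls held in 7 and 4 of 15 alternative settings, and both were lost after quantile and after cyclic loess normalization. The J-domain genes assigned to those compartments gave 0 calls among 15 genes (2 lower at an unadjusted p under 0.05 in limma). Which of the 15 serve Hspa5 or Hspa9 was not examined, and the difference between these Hsp70 genes and the J-domain genes was not tested. Hspa4, another Hsp110 protein, fell by 0.46 (adjusted p = 0.029, held in 10 of 15 settings). The stress-inducible Hspa1a and Hspa1b share a probe set with several symbols and were not used here.

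Of 9 nucleotide exchange factors 1 fell and 0 rose (4 lower and 1 higher at an unadjusted p under 0.05 in limma). Of the 9, 6 had a mean of 9 or more. Among all probe sets with such a mean 2.97% were called lower and 23.5% were lower at the unadjusted threshold. Over all probe sets 0.857% were called lower, and 7.01% were lower and 11.3% higher at the unadjusted threshold. Bag3, which links Hsp70 to autophagy and is a cardiomyopathy gene, read 12.59, 13.11 and 13.05 in placebo and 12.08, 12.20, 12.22, 12.13 and 12.24 in ILPD (difference -0.74, limma adjusted p = 0.010). Leaving out placebo array 2 or 3 took the adjusted p above the threshold (at most 0.052). Grpel1, which serves mitochondrial Hsp70, differed by -0.03 and Sil1, which serves Hspa5, by -0.18. Of 3 J-domain genes with other names 0 passed (1 higher at an unadjusted p under 0.05 in limma, as were 11.3% of all probe sets). All 3 had a positive difference: Gak 0.23, Hscb 0.16 and Sec63 0.02. Hsf1, the heat shock factor, differed by -0.21 but did not pass (limma adjusted p = 0.20). All its ILPD arrays lay below all placebo arrays, as in 4.42% of all probe sets.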

How the data were processed

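Total RNA of 8 left ventricle samples (3 placebo, 5 ILPD, grouped by their titles) was hybridised to Affymetrix arrays, per the labels' protocols. The authors deposited log2 values per probe set; their range of 4.77 to 14.8 settled the scale. The submitters' processing notes name R 2.14.2; normalization and build are not given in the sources used here. Of 28826 probe sets, 15209 had 1 symbol, 306 several and 13311 none here. All were fitted with limma 3.58.1 in R 4.3.3 (lmFit, eBayes, no covariate), two-sided, p-values adjusted by Benjamini and Hochberg's method across every probe set, and a threshold of 0.05. No filter on low values was applied. Where a listed gene had several probe sets, the brightest over all arrays stood for it. All 39 member symbols matched RefSeq (GRCr8) by gene ID, and 30 had a promoter window (250 bases before to 50 after the start). Values in every array are given for members past the threshold and the 2 largest others of each class, and partner genes past it are named; other members and ratios were named after their values were seen. The members, lists and alternatives were chosen with earlier results of these data known. Figures were drawn with matplotlib 3.10.9.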

Additional observations from a re-analysis of the deposited data

Results flagged for a closer look

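In the ILPD group of 5 arrays, 3 of the 39 members had 1 array apart from the other 4, judged by its gap to the nearest array over the whole range of the group; chance alone gives about 1 in 20 groups. Dnajb3 read 7.23 in ILPD array 2, against 7.03 to 7.07 in the other 4. Dnajc5b read 6.37 in ILPD array 5, against 6.01 to 6.10. Dnajc5g read 5.78 in ILPD array 2, against 5.92 to 5.97. None of these genes passed the test, and the 4 members that fell had no such array in ILPD.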

How the results depend on the processing

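The number of members called lower was 3 to 4 under the 7 alternatives that kept all arrays and the usual threshold, and 1 to 4 when 1 array was left out: it was 1 without placebo array 2 and 1 without placebo array 3, where Dnajb1 alone remained past the threshold. It stayed at 4 with an adjusted p of 0.1 and was 3 with at least 1.5-fold. The number called higher was 0 in every setting run. The calls of Dnaja1, Dnaja4 and Dnajb4 were lost without placebo array 2 or 3, and that of Dnajb4 also after quantile and cyclic loess normalization. Without the dimmest 40% of probe sets, which left out 6 members, the class B median was -0.16; the other class medians moved by less than the spread between arrays. With the replicate number as a replicate block 4 members were called lower; same-numbered arrays deviated together with correlations of 0.22, -0.064 and -0.098, so the numbers were not taken as pairs. Over 579 gene values under alternatives 531 kept direction and call, 8 lost the call and 40, in 15 genes that did not pass, changed sign, 0 of them past the threshold. Those that changed sign were, after quantile normalization Dnajc5 (0.022), Dnajc12 (0.030), Dnajc9 (-0.083), Dnajc14 (-0.011), Dnajc22 (-0.021), and after cyclic loess Dnajc5 (0.033), Dnajc12 (0.040), Dnajc9 (-0.060), Dnajc22 (-0.0085), and with array weights Dnajc2 (0.021), Dnajc14 (-0.013), and with the replicate block Dnajb11 (0.033), Dnajc10 (0.023), Dnajc30 (0.082), Dnajc27 (0.044), Dnajc2 (0.093), Dnajc16 (-0.012). The genes whose sign changed when 1 array was left out had these ranges over the 8 such fits: Dnajb11 -0.092 to 0.018, Dnajb12 -0.037 to 0.072, Dnajc30 -0.11 to 0.011, Dnajc11 -0.18 to 0.067, Dnajc27 -0.085 to 0.017, Dnajc5 -0.059 to 0.011, Dnajc12 -0.051 to 0.0067, Dnajc5g -0.025 to 0.027, Dnajc2 -0.062 to 0.064, Dnajc9 -0.045 to 0.062, Dnajc14 -0.11 to 0.12, Dnajc16 -0.031 to 0.14, Dnajc8 -0.0014 to 0.14. Log-transformation of linear values was not run, since the values were logged. The fit over all probe sets called 172 of them without placebo array 2 and 241 without placebo array 3, against 811 with all arrays.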
